A study of Mus musculus with 36 samples.

Results

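The collagen genes of the mouse were followed across liver, spleen and thymus, together with Tnc, the gene of the matrix glycoprotein tenascin C. They are 45 genes, 44 collagen chain genes and Tnc. The members were the rows whose NCBI gene number belongs to a protein-coding gene with a symbol made of Col, a type number, the letter a and a chain number, with Tnc added as a companion in the matrix. All 45 are among the 19001 genes of a paired-end table and 44 among the 17697 genes of a single-end table, where Col2a1 was not analysed here. The RNA was of tissue pieces from mice with normal p53 (wt) or with p53 that lacks its C-terminus (d24), and the series title asks what that end of the protein does for gene regulation in liver and for the response to radiation. The 36 libraries form 12 groups of 3. The paired-end table holds wt liver, spleen and thymus after X-rays (2 Gy, 3 h) and without treatment. The single-end table holds d24 and wt tissues, all titled as irradiated. No source used here gives strain, age or sex of the mice, and no label ties a library to an animal.

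Collagens are proteins of 3 chains wound into a triple helix. Fibrillar collagens such as types I, III and V build the fibres that bear load, type IV forms the sheet of every basement membrane, type VI forms beaded filaments beside cells, and fibril-associated collagens bind to the surface of fibres. In liver the stellate cells, the endothelium of the sinusoids and the portal fibroblasts are known sources, and in spleen and thymus a mesh of reticular fibres and vessel walls carries the lymphoid cells. Chains are hydroxylated and folded in the endoplasmic reticulum, trimmed and crosslinked outside the cell, and bound by integrins and discoidin receptors. Tenascin C is made mainly in remodelling tissue and in lymphoid stroma.

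Among the members are 11 fibrillar, 6 type IV, 6 type VI, 9 fibril-associated, 3 short-chain network, 2 multiplexin, 4 transmembrane and 3 anchoring or other collagens. They lie on 15 chromosomes of GRCm38, with several neighbours. Col4a1 (chromosome 8, 11198423 to 11312889, minus strand) and Col4a2 (11312805 to 11449287, plus strand), whose chains join in the common basement membrane heterotrimer, stand head to head and overlap by 85 bases in the GENCODE annotation. Col4a4 and Col4a3 on chromosome 1 are also head to head with 114 shared bases, and Col4a6 and Col4a5 on chromosome X are head to head with 1274 bases between them. No source used here says how reads of shared bases were counted. RefSeq windows of 250 bases before to 50 after a transcript start (GRCm38.p6) were matched for 36 of the 45 symbols, in 40 windows. The windows of Col4a1 (chr8:11312777-11313076, minus strand) and Col4a2 (chr8:11312555-11312854, plus strand), whose chains join in the same heterotrimer, are printed 5′ to 3′ with the 78 bases that both windows share in capitals, so that the same stretch is seen from either strand.
Col4a1: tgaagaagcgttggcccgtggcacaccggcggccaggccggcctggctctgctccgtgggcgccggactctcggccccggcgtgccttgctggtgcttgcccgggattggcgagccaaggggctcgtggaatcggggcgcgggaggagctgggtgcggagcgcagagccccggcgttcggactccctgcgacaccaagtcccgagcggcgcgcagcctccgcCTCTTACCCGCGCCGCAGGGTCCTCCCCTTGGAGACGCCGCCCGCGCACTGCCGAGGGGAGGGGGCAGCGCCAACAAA
Col4a2: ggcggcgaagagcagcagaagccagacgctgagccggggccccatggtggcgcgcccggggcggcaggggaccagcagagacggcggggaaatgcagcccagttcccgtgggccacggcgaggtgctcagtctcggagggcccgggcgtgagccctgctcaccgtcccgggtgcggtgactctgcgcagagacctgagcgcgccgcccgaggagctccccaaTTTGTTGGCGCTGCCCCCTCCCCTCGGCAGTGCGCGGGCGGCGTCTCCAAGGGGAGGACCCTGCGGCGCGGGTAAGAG
The annotated starts of the pair are 21 bases apart.

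The windows of Col11a2 (chr17:34038888-34039187, plus strand) and Tnc (chr4:64046966-64047265, minus strand), both called higher after X-rays in spleen and thymus, are printed with TATAAA in capitals. Of the other members called in both tissues, Col27a1 had no TATAAA in its window and Col12a1 had no matched window.
Col11a2: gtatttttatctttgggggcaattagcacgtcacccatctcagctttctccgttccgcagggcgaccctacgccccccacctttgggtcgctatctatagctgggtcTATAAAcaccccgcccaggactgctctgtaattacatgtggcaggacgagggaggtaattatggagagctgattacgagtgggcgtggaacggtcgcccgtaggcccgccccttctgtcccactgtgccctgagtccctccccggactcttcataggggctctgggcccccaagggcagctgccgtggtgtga
Tnc: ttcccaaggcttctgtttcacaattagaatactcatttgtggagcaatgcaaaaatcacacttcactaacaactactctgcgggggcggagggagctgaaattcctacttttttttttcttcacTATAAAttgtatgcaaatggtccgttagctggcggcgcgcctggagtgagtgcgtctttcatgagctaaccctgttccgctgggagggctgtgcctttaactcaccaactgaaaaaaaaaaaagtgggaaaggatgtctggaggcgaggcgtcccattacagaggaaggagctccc
TATAAA, searched on both strands, was in 7 of the 40 windows (17.5%), against 13.6% of all 32851 windows of this length. Beside Col11a2 and Tnc it was in windows of Col3a1, Col10a1, Col13a1 and Col17a1, of which only Col17a1 was called after X-rays, in thymus. CCAAT, on both strands, was in 13 (32.5%, against 37.4%) and GGGCGG, on both strands, in 25 (62.5%, against 35.7%). Col9a1, Tnc, Col6a2 and Col18a1 each count with more than 1 window, and those of Tnc and those of Col6a2 overlap. Both Tnc windows hold TATAAA and GGGCGG, and both Col6a2 windows hold GGGCGG. A p53 half-site was in 4 of the 40 windows (against 8.36% of all windows), those of Col20a1, Col9a2, Col6a6 and Col17a1, and a full p53 site was in 0 windows, against 0.0731% of all windows. The letters of the reverse of CCAAT can share bases with GGGCGG.

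Levels are the deposited normalised signal, that is a gene's reads per 1000000 of the library's effective size. Summed over all genes, signal was 1.86e+06 to 1.97e+06 in untreated liver, 856981 to 964001 in spleen and 589786 to 599804 in thymus. Tissue differences therefore depend on that effective size, and the order of tissues by share of reads was not tested. Depth was 44348579 to 81322683 reads per paired-end library and 20481048 to 38042710 per single-end library, so that 1 read is worth 0.00991 to 0.0377 of signal in the paired-end and 0.0171 to 0.0828 in the single-end table. Cdkn1a, a p53 target used to check the radiation labels, averaged 117 in X-ray and 14.5 in untreated liver, 157 in X-ray and 4.98 in untreated spleen, and 108 in X-ray and 13.0 in untreated thymus. Of the single-end libraries, 9 titled as irradiated, those of d24 liver, d24 thymus and wt spleen, carry the treatment control, and the 9 titled d24 carry the cell type WT. In that table Cdkn1a was 359.6, 363.8 and 107.6 in d24 liver against 17.7, 34.4 and 146.5 in wt liver, 319 to 416 in d24 spleen against 5.46 to 9.37 in wt spleen, and 20.4 to 67.8 in d24 thymus against 11.3 to 16.1 in wt thymus. Genotype and radiation status therefore cannot be told apart in the single-end table. Xist was on in 2 of 3 X-ray and 1 of 3 untreated libraries of each paired-end tissue, in 2, 3 and 3 of the d24 livers, spleens and thymuses, and in 1, 1 and 2 of the wt ones. In untreated tissue, hepatocyte markers summed to 317029 to 362231 in liver, thymic epithelial markers to 398 to 409 in thymus and B cell markers to 776 to 898 in spleen. Liver signal in other organs was highest in X-ray spleen replicates 2 and 3 and in replicate 3 of X-ray and of d24 thymus, as given beside the results it touches. P-values measure only the spread between these libraries, which may be in part technical. In tissue RNA, fewer cells of a type and less RNA per cell cannot be told apart.

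In untreated tissue, Col3a1 and Col4a1 were among the leading members of all 3 organs. Col18a1 was among them in liver alone, and Tnc and Col6a1 in thymus alone. Per kb of exon sequence, untreated spleen was led by Col4a1 (27.6 ± 3.66 of signal per kb, SD, n = 3), Col3a1 (25.9 ± 6.10), Col4a2 (16.8 ± 2.09), Col1a2 (15.6 ± 2.99) and Col14a1 (8.72 ± 0.564). Untreated thymus was led by Col3a1 (18.5 ± 5.98), Tnc (10.1 ± 2.57), Col4a1 (6.71 ± 1.36), Col6a1 (3.96 ± 0.435) and Col1a2 (3.96 ± 1.12). Untreated liver was led by Col18a1 (223 ± 43.7 per kb), the gene of the chain that carries endostatin, then Col3a1 (60.3 ± 5.32), Col4a1 (38.8 ± 6.55), Col4a2 (23.2 ± 3.75) and Col14a1 (19.5 ± 2.64). Among neighbours in these orders, the 3 libraries overlapped for Col4a1 and Col3a1, for Col4a2 and Col1a2 in spleen, for Tnc and Col4a1 and for Col6a1 and Col1a2 in thymus, and for Col4a2 and Col14a1 in liver. Col3a1 encodes the chain of type III fibres, Col1a2 the second chain of type I, and Col14a1 a chain bound to fibril surfaces. At the other end, 9 members, among them the cartilage genes Col2a1, Col9a2 and Col10a1, stayed under a signal of 1 in all but at most 2 of the 18 paired-end libraries.

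**Figure D1:**
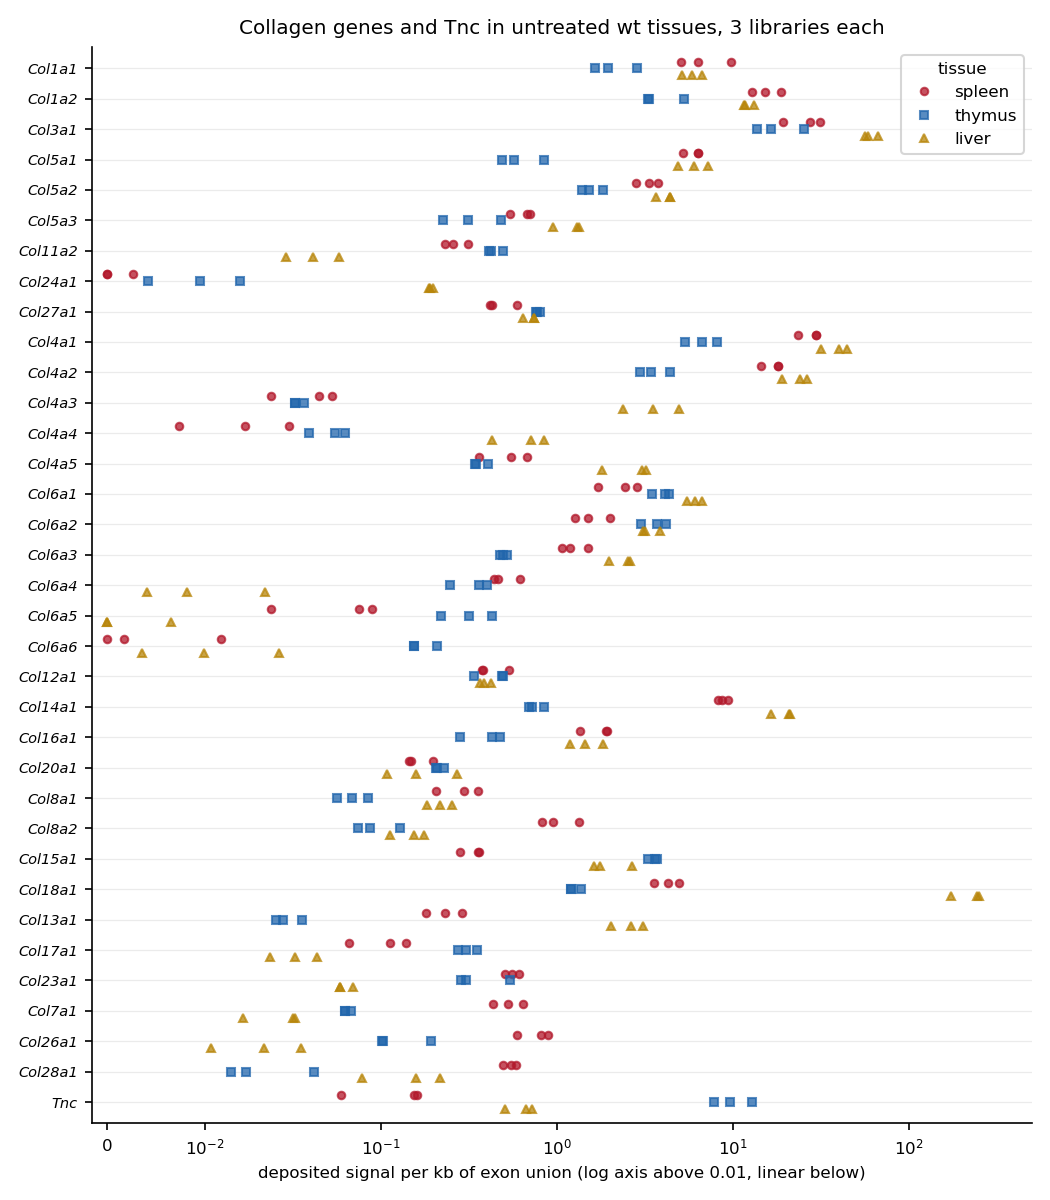
Each point is 1 untreated wt library, with the deposited signal per kb of exon sequence on the x axis (logarithmic above 0.01, linear below) and the 35 members that met the filter on low signal on the y axis, in spleen, thymus and liver. Col18a1 in liver (mean 223 per kb) stands far to the right of every other gene.

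Tissue differences were tested with limma on log2(signal + 0.5), for genes whose signal reached 1 in 3 or more of the libraries in the fit, with Benjamini-Hochberg adjustment over all genes and a threshold of 0.05. Of the 45 members, 35 met that filter over the 9 untreated libraries, which a gene could do through 1 tissue alone. Mean signal was under 1 outside spleen for Col7a1, Col8a2, Col26a1 and Col28a1, and outside thymus for Col6a5, Col6a6 and Col17a1. The same held outside liver for Col4a3, Col4a4, Col13a1 and Col24a1. For these members the highest tissue was tied to the filter. Between spleen and liver, 9 were called higher and 18 lower in spleen (25.7% and 51.4%), where 43% of all 15141 genes were called higher and 42.9% lower, or 85.9% in either direction. Between thymus and liver, 10 were higher and 20 lower in thymus (28.6% and 57.1%, against 42% and 44.4% of all genes, or 86.4% in either direction). Between spleen and thymus, 20 were higher and 10 lower in spleen (57.1% and 28.6%, against 36.8% and 35.8%, or 72.6% in either direction). In that last comparison 18 members did not overlap with spleen higher (51.4%, against 39% of all genes) and 12 with spleen lower (34.3%, against 38.4%). Over these comparisons, which share libraries, 6 members were highest in spleen, 6 in thymus and 14 in liver with a call against both other tissues. That is 17.1%, 17.1% and 40.0% of the 35 members, against 21.8%, 20.5% and 35.7% of all 15141 genes.

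Of the members, the basement membrane genes Col18a1 and Col4a3 gave the widest differences from liver. Those of Col4a1 and Col4a2, of the same kind of matrix, were -0.48 and -0.46 for spleen minus liver. Col18a1 had a signal of 24.2, 33.4 and 29.2 in spleen, 8.21, 8.18 and 9.34 in thymus, and 1659, 1707 and 1170.1 in liver. The tissues did not overlap, and the log2 difference was -5.68 ± 0.15 (SE) for spleen minus liver and -7.36 ± 0.15 for thymus minus liver (limma, Benjamini-Hochberg adjusted p = 3.51e-12 for spleen and 3.46e-13 for thymus). Col4a3, a chain of the basement membrane of kidney glomeruli, was at 0.203, 0.452 and 0.379 in spleen, 0.279, 0.277 and 0.311 in thymus, and 42.2, 30.2 and 20.2 in liver. Its head-to-head partner Col4a4 followed, with means of 0.183 in spleen, 0.527 in thymus and 6.69 in liver and a log2 difference of -3.36 for spleen minus liver. Col15a1, the other multiplexin, was instead highest in thymus, with means of 2.00 in spleen, 21.3 in thymus and 12.2 in liver. Its log2 difference was -3.13 ± 0.17 for spleen minus thymus and -2.31 ± 0.17 for spleen minus liver. Col4a1 and Col4a2 were lowest in thymus, and Col4a2 was higher in spleen than in thymus by 2.21 ± 0.15.

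Fibril genes gave another order. Col14a1 had a signal of 53.03, 55.7 and 60.2 in spleen, 4.64, 4.47 and 5.45 in thymus, and 137, 135 and 107 in liver. The thymuses were low and apart from both other tissues, with a log2 difference of 3.41 ± 0.11 for spleen minus thymus and -4.56 ± 0.11 for thymus minus liver. Col5a1, a chain of type V that starts fibrils, was at 44.0, 53.02 and 53.03 in spleen, 4.09, 4.82 and 7.10 in thymus, and 50.8, 60.7 and 41.0 in liver. Spleen and liver overlapped (-0.01 ± 0.18, adjusted p = 0.962 by limma with Benjamini-Hochberg adjustment), and thymus lay lower than liver by a log2 of -3.15. Col11a2, a minor fibrillar chain best known from cartilage, was low throughout but highest in thymus, with a log2 difference of 2.10 for thymus minus liver.

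Several rarer collagens were highest in spleen or in thymus. Of these, Col7a1, Col26a1, Col8a2, Col6a5 and Col6a6 averaged under a signal of 1 in both other tissues and met the filter through their highest tissue alone. In spleen minus liver the highest differences were Col6a4 at 2.85, a long chain of type VI, Col7a1 at 2.85, the chain of anchoring fibrils, Col26a1 at 2.21, Col8a2 at 2.11, a chain of the network under corneal and vascular endothelium, and Col23a1 at 2.10, a membrane-spanning collagen. Col7a1 was at 4.03, 4.86 and 5.90 in spleen, 0.578, 0.624 and 0.581 in thymus, and 0.293, 0.302 and 0.151 in liver, with no overlap between spleen and the other tissues. Col7a1 and Col8a2 were also among the highest in spleen minus thymus, at 2.30 and 2.42. Of the long type VI chains, Col6a5 and Col6a6 were highest in thymus, at 2.71 and 1.75 for thymus minus liver, and at -1.70 and -1.93 for spleen minus thymus. Col6a2, which every type VI trimer needs, was at -1.15 for spleen minus thymus.

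Among the 6 members highest in thymus with a call against both other tissues, Tnc (chromosome 4, 63959785 to 64047015) had the widest differences. It had a signal of 0.462, 1.25 and 1.20 in spleen, 60.4, 74.4 and 99.8 in thymus, and 3.94, 5.62 and 5.21 in liver, so that no library of a tissue overlapped with another tissue. The log2 difference was -5.76 ± 0.24 for spleen minus thymus and 3.84 ± 0.24 for thymus minus liver (limma, Benjamini-Hochberg adjusted p = 9.24e-10 and 1.28e-08). The transmembrane collagen Col13a1 took the opposite side, with a log2 difference of -3.86 for thymus minus liver and -2.80 for spleen minus liver. The 5 highest and 5 lowest called differences of each paired-end tissue comparison also passed without any single library and under each other setting that tested them.

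The same tissue differences were measured again in the single-end wt libraries, which differ from the untreated ones in sequencing layout and in radiation title, factors that cannot be told apart. The single-end wt spleens carry the treatment control and the wt livers and thymuses the treatment X-ray, so that in the comparisons with spleen tissue and treatment label cannot be told apart. For spleen minus liver, 6 of 37 members were called higher and 7 lower (16.2% and 18.9%, against 24.9% and 24.5% of 15063 genes, or 49.4% in either direction). For thymus minus liver it was 6 and 17 (16.2% and 45.9%, against 29% and 30.8%), and for spleen minus thymus 14 and 2 (37.8% and 5.41%, against 19.4% and 16.9%). Of 33 members tested in both tables, 30 had the same sign for spleen minus liver, 31 for thymus minus liver and 30 for spleen minus thymus (90.9%, 93.9% and 90.9%, against 88.7%, 85.4% and 80.3% of the 14422 genes tested in both). Calls of the same sign in both tables were 12 for spleen minus liver (44.4% of the paired-end and 92.3% of the single-end calls), 19 for thymus minus liver (63.3% and 82.6%) and 14 for spleen minus thymus (46.7% and 87.5%). Over all genes these shares were 54.2% and 94.9%, 62.2% and 90.4%, and 44.2% and 89.0% in the same order.

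Col18a1 was at 37.1, 45.7 and 12.8 in single-end wt spleen, 24.9, 11.1 and 13.4 in wt thymus and 1967, 1611 and 1311 in wt liver, and Tnc at 2.81, 1.92 and 0.627, at 83.1, 107 and 83.8 and at 21.6, 18.3 and 7.18 in the same order of tissues. The log2 difference of Col18a1 was -5.82 for spleen minus liver, and that of Tnc was -5.45 for spleen minus thymus. The type IV pair on chromosome 1 did not keep its values. Col4a3 was at 2.89, 1.90 and 0.543 in single-end wt liver, and no read fell on it in the 3 wt thymuses. Its log2 difference for spleen minus liver was -0.52 in the single-end and -5.16 in the paired-end table. Col4a4 was the only member called with opposite signs, at 1.26 in the single-end and -0.60 in the paired-end table for spleen minus thymus. Its signal was low in both tissues, with paired-end means of 0.183 in spleen and 0.527 in thymus. No read fell on Col4a4 in the 3 single-end wt thymuses.

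**Figure D2:**
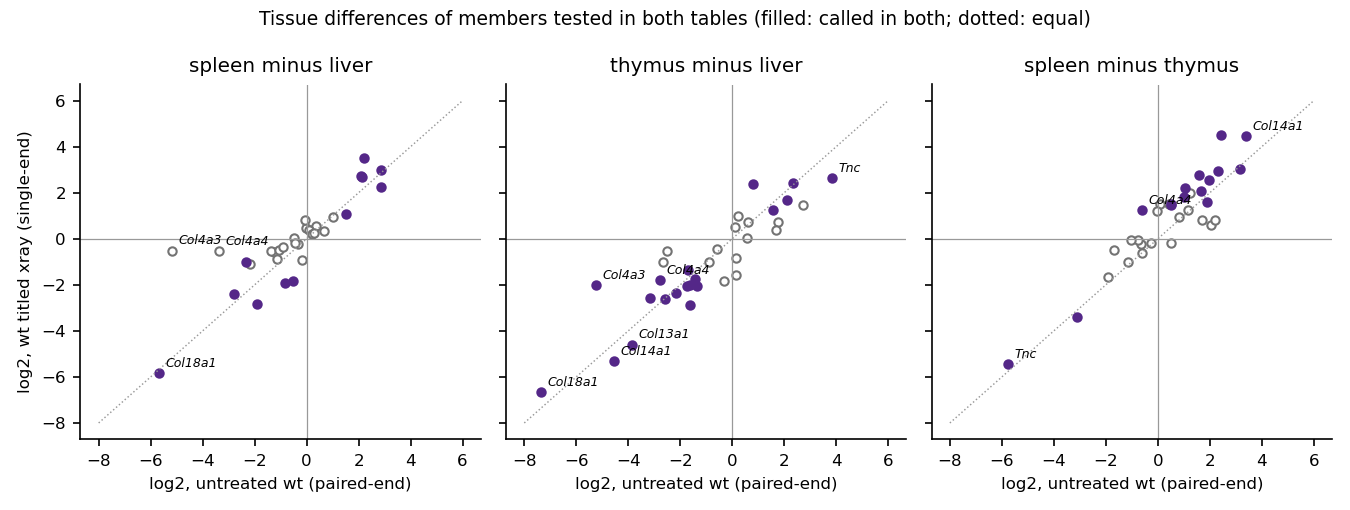
For members tested in both tables, the log2 tissue difference in single-end wt libraries (y axis) is plotted against that in untreated paired-end libraries (x axis), in 3 panels. Most points share their sign, 30, 31 and 30 of 33 (88.7%, 85.4% and 80.3% of all genes did), and filled points were called in both tables.

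Collagen genes were higher after X-rays in wt spleen. In X-ray against untreated spleen, 29 of 45 members met the filter, 3 of them (Col20a1, Col22a1 and Tnc) through the X-ray libraries alone, and 19 were called higher and 1 lower. That is 65.5% and 3.45% of the tested members, where 19.5% of all 13389 genes were called higher and 20.4% lower. The X-ray and untreated libraries did not overlap, with X-ray higher, for 19 members (65.5%, against 24.5% of all genes), and with X-ray lower for 1 (3.45%, against 28.8%). The median log2 difference was 0.56 over the tested members and -0.03 over all genes. Without the 3 that met the filter through the X-ray libraries alone, 16 of 26 were called higher, and the median was 0.54. Called differences of the higher genes ran from 0.32 to 1.41, with adjusted p from 0.000306 to 0.0325 (limma, Benjamini-Hochberg). The calls numbered 12 without untreated replicate 1 or X-ray replicate 3, and the same 12 members (Col4a1, Col4a2, Col5a2, Col5a3, Col6a2, Col6a3, Col7a1, Col11a2, Col12a1, Col15a1, Col16a1 and Col27a1) were called without any single library.

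Of 8 tested fibrillar genes in spleen, 4 were called higher and 1 lower. Col11a2 (chromosome 17, 34038919 to 34066684) had a signal of 5.37, 5.93 and 4.56 after X-rays and 1.46, 1.62 and 1.97 in untreated spleen. All X-ray libraries stood more than 2-fold above the highest untreated one, and the log2 difference was 1.41 ± 0.15 (SE; limma, Benjamini-Hochberg adjusted p = 0.000306). Col27a1, a fibrillar chain of cartilage and developing tissue, was at 6.45, 9.21 and 7.97 after X-rays and 3.16, 3.26 and 4.52 in untreated spleen, also without overlap, at 1.02 ± 0.17 (adjusted p = 0.00229, limma). Col5a2 was at 30.8, 30.7 and 37.7 after X-rays and 18.6, 22.01 and 24.7 untreated (0.60 ± 0.14, limma adjusted p = 0.00923). Col5a3, the third chain of type V, was the member that fell, at 1.55, 2.28 and 1.22 after X-rays and 3.31, 4.13 and 4.29 untreated. Its log2 difference was -1.03 ± 0.19 (limma, Benjamini-Hochberg adjusted p = 0.00358), and the highest X-ray library lay under the lowest untreated one. Of the major fibre chains Col1a2 was called higher (0.55 ± 0.15), while Col1a1 at 0.52 ± 0.22 and Col3a1 at 0.46 ± 0.19 did not pass (adjusted p = 0.0919 and 0.0776, limma with Benjamini-Hochberg adjustment). Col1a1 was at 69.1, 48.6 and 57.7 after X-rays and 30.2, 37.4 and 57.5 untreated, with overlap through untreated replicate 3.

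Of 6 type VI members 4 were tested and called higher, and of 9 fibril-associated members 5 were, of which Col20a1 and Col22a1 met the filter through the X-ray spleens alone. Col12a1, whose chain bridges fibrils and other matrix, was at 14.3, 10.2 and 11.1 after X-rays and 4.59, 4.61 and 6.51 in untreated spleen (1.11 ± 0.17, limma adjusted p = 0.00161). Col6a3, the longest of the common type VI chains, was at 22.9, 22.01 and 23.6 after X-rays and 11.6, 12.8 and 16.2 untreated (0.74 ± 0.13, limma adjusted p = 0.00302). Groups did not overlap for either gene. Col6a2 was at 14.6, 15.1 and 18.1 after X-rays and 7.64, 9.06 and 12.1 untreated (0.72 ± 0.17), and Col6a1 at 0.64 ± 0.18. Col16a1, a fibril-associated chain, was at 14.7, 14.01 and 12.8 after X-rays and 7.01, 10.03 and 9.85 untreated (0.61 ± 0.15). The others called were Col6a4 (0.54), Col14a1 (0.32), Col20a1 (0.56) and Col22a1 (0.76), a chain of tissue junctions, with Benjamini-Hochberg adjusted p of 0.0163 to 0.0325 by limma.

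Of the basement membrane genes, 2 of 3 tested type IV chains and 1 of 2 multiplexins were called higher. Col4a1 was at 309, 266 and 267 after X-rays and 155, 196 and 197 in untreated spleen, and Col4a2 at 180.5, 157 and 150.4 after X-rays and 92.7, 117 and 116 untreated. The pair gave 0.62 ± 0.14 and 0.59 ± 0.13 (limma, Benjamini-Hochberg adjusted p = 0.00778 and 0.00838), with no overlap between groups for either. Col15a1 was at 3.70, 3.25 and 3.10 after X-rays and 1.70, 2.13 and 2.16 untreated (0.62 ± 0.14). Col18a1, the other multiplexin, was at 0.21 ± 0.14 and did not pass (limma adjusted p = 0.253).

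Among the remaining members Col7a1, Tnc and Col26a1 were called higher. Col7a1 (chromosome 9, 108953586 to 108984875), whose chain makes the fibrils that tie epithelium to the matrix below, was at 9.13, 15.6 and 12.4 after X-rays and 4.03, 4.86 and 5.90 in untreated spleen. The log2 difference was 1.23 ± 0.20 (limma, Benjamini-Hochberg adjusted p = 0.00198), with no overlap. Tnc was at 3.70, 1.62 and 2.48 after X-rays and 0.462, 1.25 and 1.20 untreated (1.07 ± 0.29, limma adjusted p = 0.0192), without overlap, and met the filter through the X-ray libraries alone. Col26a1, the gene of a small collagen with an EMI domain, was at 0.53 ± 0.16. Not called in spleen, beside those above, were Col5a1 (-0.34), Col4a5 (0.51), Col8a1 (0.43), Col8a2 (0.43), Col23a1 (0.34) and Col28a1 (-0.01).

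**Figure D3:**
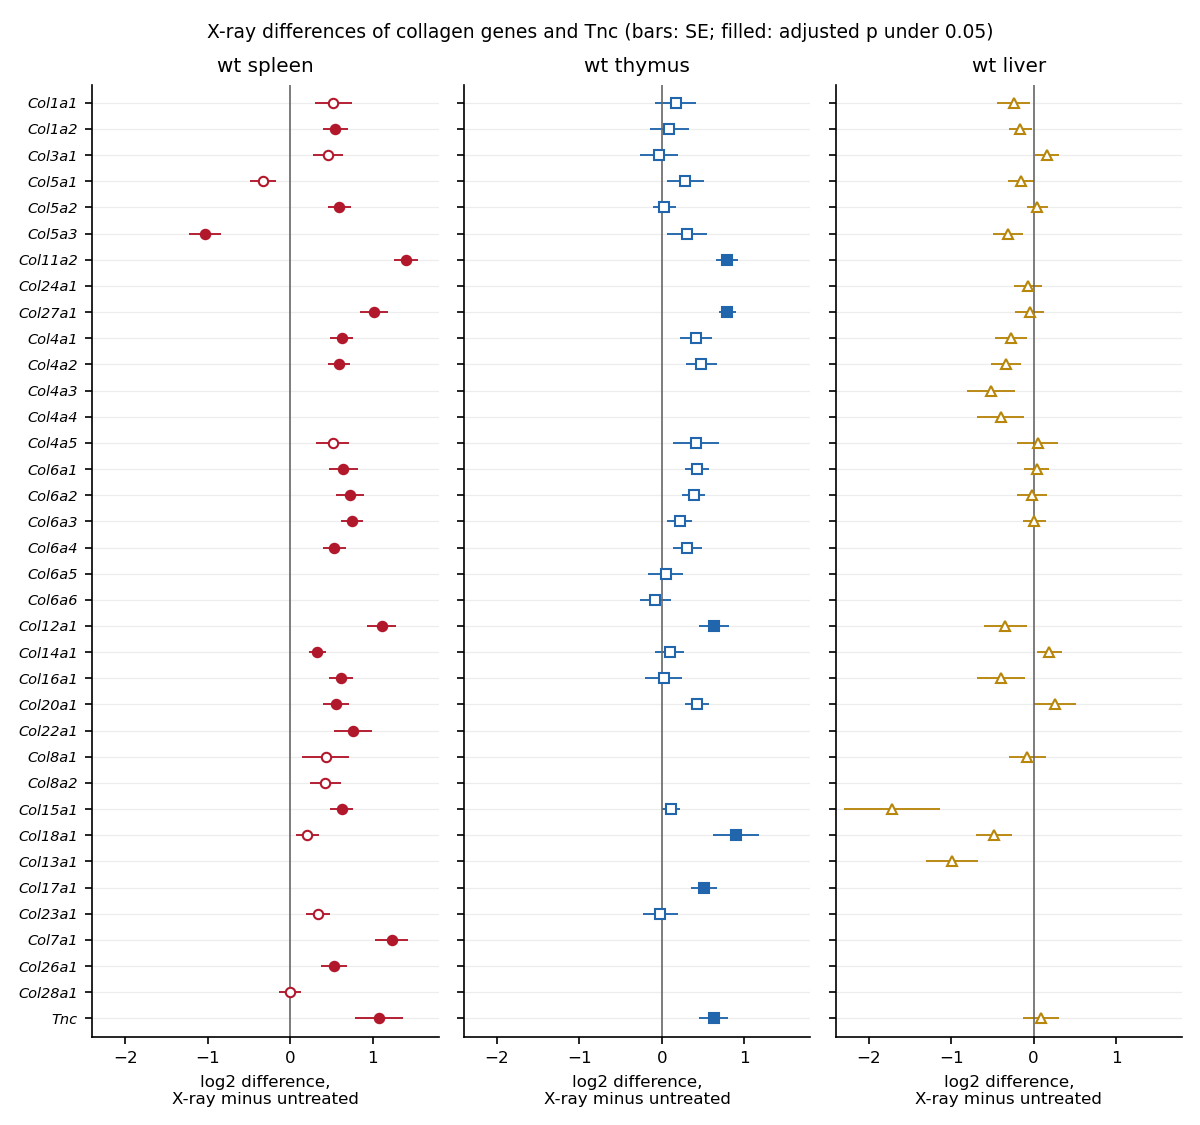
Log2 differences of X-ray minus untreated libraries with SE bars, for each member tested in wt spleen, thymus and liver, with filled points for an adjusted p under 0.05 (limma, Benjamini-Hochberg). In spleen 19 of 29 points are filled on the higher side and 1 on the lower, in thymus 6 of 26 and in liver 0 of 25.

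Other genes that act on collagen were counted in the same spleens. In a list of folding, modification and secretion genes, 14 of 17 tested were called higher, among them the lysyl hydroxylase Plod1 (0.82), the collagen chaperone Serpinh1 (0.77), the galactosyltransferase Colgalt1 (0.75) and the prolyl isomerase Fkbp10 (0.62). Of 11 propeptide and crosslinking genes 6 were called higher, including the procollagen N-peptidase Adamts14 (0.92) and the enhancers of procollagen C-peptidase Pcolce2 (0.76) and Pcolce (0.46), and Adamts3 was called lower (-1.55). Of 9 receptors 3 were called higher, the integrin subunits Itga2 (0.62) and Itga1 (0.42) and the kinase Ddr1 (0.41). Of 8 degradation genes 5 were called higher, with the gelatinase Mmp2 at 1.21 and the inhibitors Timp3 at 0.98, Timp1 at 0.81 and Timp2 at 0.62. Among 17 matrix partners 11 were called higher, including Thbs1 (1.13), perlecan gene Hspg2 (0.83), Postn (0.69) and Lamb1 (0.55). TGF-beta ligands and targets had 5 of 9 called higher, among them Ccn2 at 2.01, Ccn1 at 1.92 and Tgfb3 at 1.07. These counts are limma calls with Benjamini-Hochberg adjustment over all genes, of which 19.5% were called higher.

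Markers of matrix-making and other cells moved in the same libraries. Smooth muscle markers were called higher for 5 of 6, with summed signal of 902, 499.7 and 621 after X-rays and 297, 331 and 432 in untreated spleen, and endothelial markers for 6 of 9, with sums of 257 to 331 after X-rays and 210.4 to 216 untreated. Fibroblast markers were called higher for 3 of 7 (sums 242 to 326 after X-rays and 207 to 227 untreated), and stellate and pericyte markers for 2 of 6 (137 to 178 after X-rays and 71.8 to 91.6 untreated). In the groups compared, none of these markers was without reads in all 3 libraries. Their part in the collagen differences was not tested. Hepatocyte markers, of another organ, were called higher for 5 of 5, with sums of 38.1, 459 and 389 after X-rays and 31.3, 21.9 and 42.8 untreated. X-ray replicate 1, whose hepatocyte sum lay among the untreated ones, had the highest Col4a1, Col4a2, Col12a1 and Tnc signal of the spleens, and the highest smooth muscle and stellate and pericyte sums. It was the lowest X-ray spleen for Col7a1, Col27a1 and Col6a2, and also for the fibroblast and endothelial sums. The cartilage gene Matn1, the only 1 of 6 cartilage markers tested, was also called higher (2.65). It met the filter through the X-ray libraries alone, since the cartilage markers together summed to 0.185 to 0.343 in untreated spleen.

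In wt thymus fewer collagen genes were called after X-rays. Of 26 members tested, 6 were called higher (23.1%, against 9.77% of 13810 genes) and 0 lower (against 11.6% of all genes). Members without overlap numbered 8 higher (30.8%, against 18.6%) and 0 lower (against 22%), and the median log2 difference was 0.30 over the members and 0.01 over all genes. The called members were Col27a1, Col11a2, Tnc, Col12a1, Col17a1 and Col18a1. Col11a2, Col27a1, Col12a1 and Tnc were called higher in spleen as well, where Tnc met the filter through the X-ray libraries alone. In spleen 65.5% of the tested members and 19.5% of all genes were called higher. The share of all genes called in both tissues was not computed. Leaving out X-ray replicate 3 gave 2 calls, leaving out either of untreated replicates 1 and 2 gave 2, and leaving out untreated replicate 3 gave 3, and Col11a2 and Col27a1 passed without any single library. With the replicate number as a block, 10 were called.

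Col27a1 was at 9.83, 10.7 and 11.4 in X-ray and 6.13, 5.79 and 5.85 in untreated thymus. Groups were tight and apart, with a log2 difference of 0.80 ± 0.11 (limma, Benjamini-Hochberg adjusted p = 0.00144). Col11a2 was at 4.74, 5.21 and 5.60 after X-rays and 2.58, 2.68 and 3.11 untreated, again without overlap (0.79 ± 0.13, limma adjusted p = 0.00399). Col12a1 was at 9.38, 6.62 and 9.69 after X-rays and 5.97, 4.12 and 5.93 untreated (0.63 ± 0.18, limma adjusted p = 0.0357). Tnc was at 133, 98.0 and 127 after X-rays and 60.4, 74.4 and 99.8 untreated, where untreated replicate 3 overlapped with X-ray replicate 2 (0.63 ± 0.17, limma adjusted p = 0.0319). Col17a1, the collagen of epithelial hemidesmosomes, was at 2.92, 2.28 and 2.85 after X-rays and 1.69, 1.53 and 1.97 untreated (0.51 ± 0.16, limma adjusted p = 0.0434). Of 6 fits that each left out 1 library, Col12a1 and Col17a1 were called in 1 each and Tnc in 2. The calls of Col12a1, Col17a1 and Tnc were also lost with no filter. Those of Col12a1 and Col17a1 were lost with a term for Xist, added after the data were seen.

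The call of Col18a1 in thymus also depended on which libraries were used. Col18a1 was at 10.5, 14.6 and 28.2 in X-ray and 8.21, 8.18 and 9.34 in untreated thymus (0.89 ± 0.28, limma with Benjamini-Hochberg adjusted p = 0.0480). X-ray replicate 3 was highest and also held the most hepatocyte signal, a marker sum of 1354 beside 50.7 and 92.5 in the other X-ray and 166, 23.6 and 25.8 in the untreated thymuses. Without that library the difference was 0.51 (limma adjusted p = 0.0685). The call was also lost without X-ray replicate 2 or any of the 3 untreated libraries, and the adjusted p ran from 0.00861 (without X-ray replicate 1) to 0.110 over the settings and left-out libraries. Per 1000 of Alb signal, Col18a1 was 314, 229.9 and 29.6 in X-ray thymuses and 2.81 to 6.70 over the 6 paired-end livers. The part of liver RNA in this call was not tested.

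**Figure D4:**
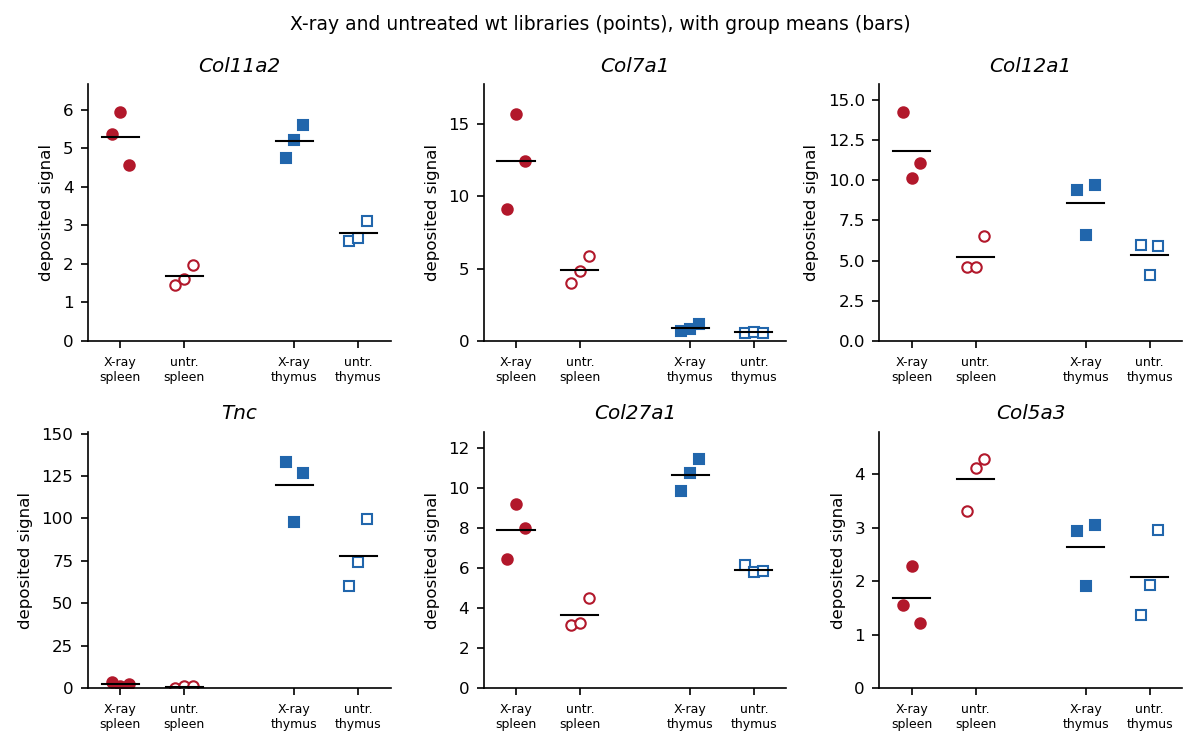
Deposited signal of 6 members in each X-ray and untreated wt library of spleen and thymus, with the mean of 3 libraries as a bar. Col11a2, Col7a1, Col12a1 and Col27a1 are higher in each X-ray spleen than in any untreated one, and Col5a3 is lower.

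Of the other lists in thymus, where 9.77% of all genes were called higher and 11.6% lower, folding and modification had 5 of 18 called higher, with the prolyl hydroxylases P4ha3 (0.77) and P4ha2 (0.61) and the lysyl hydroxylases Plod2 (0.68) and Plod1 (0.52). Propeptide and crosslinking genes had 0 of 11 called by limma. Ddr1 was called higher (0.77) and Itgb1 lower (-0.24) among 7 receptors, and Mmp2 (0.50) and Timp3 (0.45) were called higher among 8 degradation genes. Matrix partners had 2 of 18 called, Thbs1 (1.69) and Lamb1 (0.52), and TGF-beta ligands and targets 3 of 9, among them Ccn1 (3.01) and Ccn2 (1.67). Thymic epithelial markers were called higher for 3 of 7, Krt8 (0.83), Psmb11 (0.67) and Krt5 (0.61), with sums of 624, 623 and 724 after X-rays and 398, 402 and 409 in untreated thymus. Fibroblast markers had 1 of 8 called higher, Cxcl12 (0.57), with sums of 224 to 275 after X-rays and 175 to 190.5 untreated, and smooth muscle markers 2 of 4, with sums of 60.3 to 84.5 after X-rays and 41.3 to 63.4 untreated. Their part in the collagen differences was not tested.

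In wt liver 0 of 25 tested members were called by limma, and 0.242% of 13250 genes were called in either direction. At an unadjusted p under 0.05 there were 2 members of the 25, where 21.9% of all genes had one, and edgeR and DESeq2 on recovered reads called 0 each (against 0.242% and 4.76% of all genes). The median log2 difference was -0.16 over the members and -0.05 over all genes. The smallest p belonged to Col13a1, at 6.58, 2.37 and 3.49 in X-ray and 9.80, 8.40 and 6.48 in untreated liver (-0.99 ± 0.31, adjusted p = 0.191 by limma), with overlap through X-ray replicate 1. Col15a1 was at 10.1, 1.13 and 2.58 after X-rays and 10.6, 9.79 and 16.2 untreated (-1.72 ± 0.58, limma adjusted p = 0.192), with X-ray replicate 1 inside the untreated range. Col18a1, the leading liver collagen, was at 1375, 811 and 1101 after X-rays and 1659, 1707 and 1170.1 untreated (-0.48 ± 0.22, limma adjusted p = 0.237). Without X-ray replicate 1, 3 members were called. Every list of other collagen-related genes had 0 calls in liver by limma.

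Whether the X-ray difference itself varied with tissue was tested over all 18 paired-end libraries, which are those of the comparisons above. Of 36 members, 12 were called by the limma F test (33.3%, against 30.5% of 15654 genes). Col11a2 stood at 1.41 in spleen, 0.79 in thymus and 0.03 in liver (adjusted p = 0.0027, limma with Benjamini-Hochberg adjustment). Col27a1 stood at 1.02, 0.80 and -0.05 in the same order, Col7a1 at 1.23, 0.36 and -0.11, and Col12a1 at 1.11, 0.63 and -0.34. For Col13a1 (0.51, 0.17 and -0.99) and Col15a1 (0.62, 0.11 and -1.72) the liver value was negative and both lymphoid values were positive. Of these values only that of Col15a1 in spleen was called on its own. Col13a1 was in this fit through liver alone, with untreated means of 0.749 in spleen and 0.0946 in thymus. Col11a2 did not meet the filter in liver, nor did Col7a1 in liver or thymus. Col5a3 stood at -1.03 in spleen, 0.30 in thymus and -0.30 in liver, the member whose spleen value lay apart on the lower side. The count was 7 without untreated liver replicate 1. Those 7 genes were called without any single library.

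In d24 against wt spleen, Col26a1, Col23a1, Col18a1 and Col4a2 were called higher. Of 32 tested, 4 of them (Col6a4, Col8a1, Col28a1 and Tnc) through the d24 libraries alone, 4 were called higher (12.5%, against 1.04% of 13554 genes) and 0 lower (against 1.24%). Members without overlap and higher in d24 numbered 12 (37.5%, against 8.74% of all genes), and 14 had an unadjusted p under 0.05 (43.8%, against 13.3%). The median log2 difference was 0.90 over the members and -0.05 over all genes. Without the 4 that met the filter through the d24 libraries alone, 11 of 28 did not overlap and were higher, and the median was 0.84. The wt spleens carry the treatment control and the d24 spleens the treatment X-ray, so that genotype and treatment cannot be told apart in these values.

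Col26a1 (chromosome 5, 136741759 to 136883376) was at 40.8, 43.5 and 79.5 in d24 and 4.98, 6.51 and 8.03 in wt spleen. Every d24 library stood at least 5-fold above the highest wt one, and the log2 difference was 2.93 ± 0.36 (limma, Benjamini-Hochberg adjusted p = 0.00131). In the paired-end table, normalised separately, Col26a1 was at 3.26 ± 0.337 in X-ray and 2.12 ± 0.423 in untreated wt spleen (SD, n = 3 each). Col23a1, a membrane collagen that can be shed, was at 20.0, 31.0 and 30.2 in d24 and 4.24, 8.18 and 5.31 in wt spleen (2.12 ± 0.38, limma adjusted p = 0.0126), without overlap. Col18a1 was at 90.1, 126 and 141 in d24 and 37.1, 45.7 and 12.8 in wt spleen (2.05 ± 0.42, limma adjusted p = 0.0250). Col4a2 was at 254, 339.8 and 319 in d24 and 127, 122 and 37.9 in wt spleen (1.85 ± 0.40, limma adjusted p = 0.0353), and its partner Col4a1 at 1.67 ± 0.40 did not pass (limma adjusted p = 0.0540).

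Replicate 3 of wt spleen was the lowest wt library for Col18a1, Col4a2, Col1a1 and Col3a1. The calls numbered 5, 6 and 5 without wt replicates 1, 2 and 3, and 2, 1 and 2 without d24 replicates 1, 2 and 3, where Col26a1 was the gene that passed each time. EdgeR called 2 and DESeq2 6 on recovered reads (against 1.07% and 4.40% of all genes). With the replicate number as a block there were 8, and with a term for Xist, added after the data were seen, 0, with Col26a1 at an adjusted p of 0.0538 (limma, Benjamini-Hochberg). B cell markers summed to 245, 44.8 and 143 in d24 and 372, 477 and 329 in wt spleen with 0 of 4 called by limma. Fibroblast markers summed to 1221, 809.7 and 1065 in d24 and 468, 590.2 and 375 in wt spleen, with Pdgfra alone called of 8 (2.52), and the mesothelial marker Wt1 was called (1.65). Their part in the collagen values was not tested.

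Of the collagen-related lists in d24 spleen, Plod1 (1.46) was called higher of 18 folding genes, the endocytic collagen receptor Mrc2 (2.33) higher and the platelet collagen receptor Gp6 (-2.83) lower of 9 receptors, Mmp2 (1.48) higher of 9 degradation genes and Thbs1 (-1.98) lower of 18 matrix partners. Propeptide genes and TGF-beta genes had 0 limma calls.

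In d24 against wt thymus, where the wt libraries carry the treatment X-ray and the d24 ones control, Tnc was the only gene of 13818 that limma called (0.00724%), and so 1 of 31 tested members. It was at 287, 242 and 264 in d24 and 83.1, 107 and 83.8 in wt thymus. The groups lay far apart, with a log2 difference of 1.53 ± 0.16 (limma, Benjamini-Hochberg adjusted p = 0.0238). The call was lost without d24 replicate 1 (adjusted p = 0.0508, limma) and without each wt replicate (0.333, 0.118 and 0.449), while the difference ran from 1.47 to 1.65 and the adjusted p from 1.3e-05 to 0.449 over the left-out libraries. It was also lost with no filter, with the replicate block and with the Xist term. EdgeR called 1 member and DESeq2 6 (against 0.0145% and 1.93% of all genes).

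No other member of d24 thymus was called. At an unadjusted p under 0.05 there were 16 (51.6%, against 9.83% of all genes), and 13 were without overlap and higher in d24 (41.9%, against 9.02%) and 2 lower (6.45%, against 7.55%). Of the tested members 8 met the filter through the d24 libraries alone. The median log2 difference was 0.96 over the members and -0.02 over all genes. Without those 8, 9 of 23 were higher without overlap, 13 had an unadjusted p under 0.05, and the median was 0.85. Col1a1 was at 14.3, 55.5 and 99.99 in d24 and 19.0, 16.7 and 13.1 in wt thymus (1.40 ± 0.55), and Col3a1 at 156, 271 and 587 in d24 and 145, 83.6 and 85.7 in wt thymus (1.52 ± 0.40, limma adjusted p = 0.287). In both, d24 replicate 3 was highest and d24 replicate 1 was near the wt values. Hepatocyte markers summed to 20.8, 87.0 and 1262 in the same d24 thymuses and to 5.68, 1.64 and 8.53 in wt thymus, with a median log2 difference of 4.02 and 0 of 4 called by limma. Fibroblast markers summed to 363, 305 and 464 in d24 and 178, 188 and 213 in wt thymus, with 0 of 8 called. The lists of genes that act on collagen had 0 limma calls in d24 thymus, as in d24 liver. Their part was not tested. Col15a1 was lower without overlap, at 45.0, 37.2 and 24.4 in d24 and 51.0, 51.1 and 49.5 in wt thymus (-0.54 ± 0.24, limma adjusted p = 0.495).

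**Figure D5:**
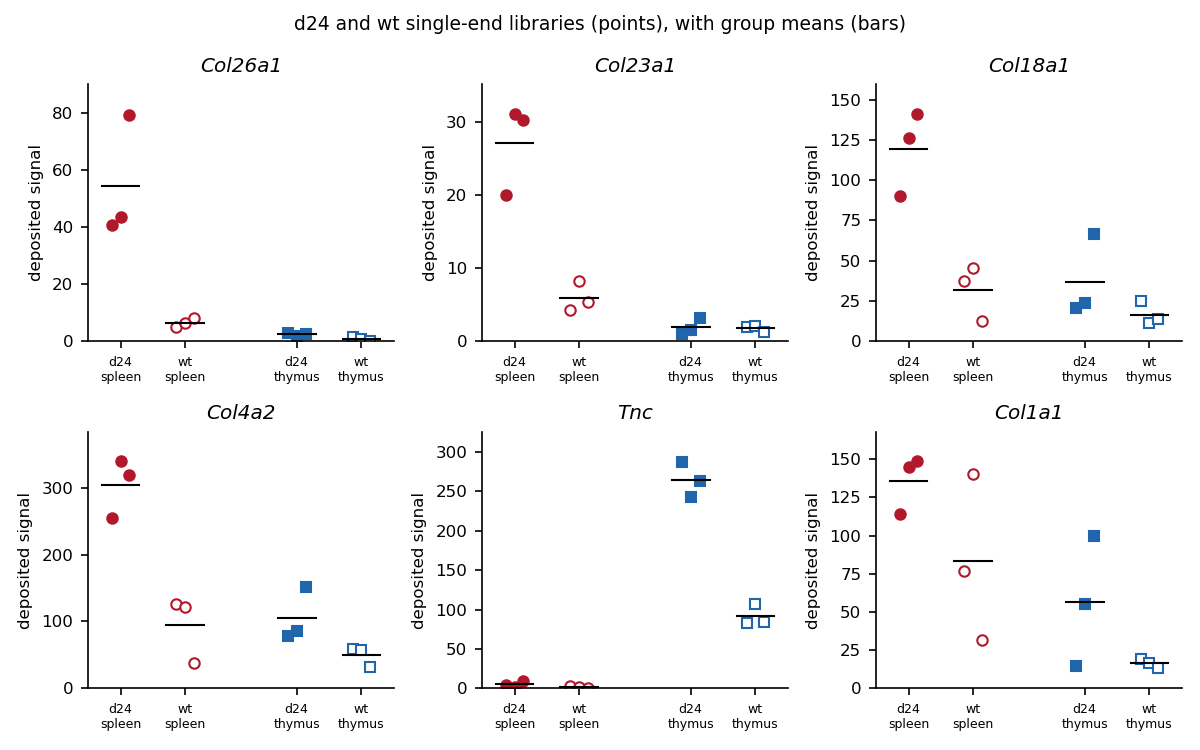
Deposited signal of 6 members in each single-end d24 and wt library of spleen and thymus, all titled as irradiated, with the mean of 3 libraries as a bar. Col26a1 and Col23a1 in spleen and Tnc in thymus are higher in each d24 library than in any wt library.

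In d24 against wt liver, with the same crossing of titles and treatments as in thymus, 0 of 28 tested members were called by limma (0.526% of 13695 genes in either direction, 0.277% higher and 0.248% lower), 7 had an unadjusted p under 0.05 (25.0%, against 13.4%), and edgeR called 0 and DESeq2 5 (against 0.0803% and 3.88% of all genes). Members without overlap and higher numbered 6 (21.4%, against 7.56%). The smallest p belonged to the type VI partners, with Col6a1 at 54.6, 92.7 and 66.2 in d24 and 31.9, 19.5 and 10.1 in wt liver (1.88 ± 0.40, limma adjusted p = 0.0862) and Col6a2 at 46.9, 67.8 and 53.1 in d24 and 27.8, 20.2 and 12.8 in wt liver (1.49 ± 0.33, limma adjusted p = 0.0914). Col4a1 was at 288, 751 and 475 in d24 and 222, 152 and 116 in wt liver (1.57 ± 0.36, limma adjusted p = 0.0983). All 3 genes were higher in each d24 liver than in any wt liver. Col18a1 overlapped, at 1256, 2009 and 2736 in d24 and 1967, 1611 and 1311 in wt liver. Without d24 replicate 3, 1 member was called. The lymphocyte genes Rag1 (-3.85) and Dntt (-3.43) were called lower in the same d24 livers. Endothelial markers summed to 904.5, 1950.1 and 1162 in d24 and 813, 679 and 627 in wt liver, without overlap, with 0 of 10 called by limma. Stellate and pericyte markers summed to 370.4, 593 and 676 in d24 and 489, 411 and 272 in wt liver with 0 of 6 called, and fibroblast markers to 487, 427 and 753 in d24 and 851, 809 and 573 in wt liver, also with 0 of 6 called, and both overlapped. The part of these markers was not tested. The genotype difference varied with tissue for 0 of 43 members (limma F test, against 0.988% of 16092 genes), with 7 at an unadjusted p under 0.05 (16.3%, against 11.6%), 0 by edgeR and 2 by DESeq2 (against 0.286% and 3.13% of all genes).

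Summed over the collagen genes without Tnc, signal was 1215, 1074 and 1141 in X-ray and 667, 835 and 918 in untreated spleen, and the groups did not overlap. In thymus the sum was 335, 376 and 506 after X-rays and 295, 302 and 417 untreated, and in liver 2495, 1896 and 2411 after X-rays and 2899, 3061 and 2249.9 untreated, with overlap in both. In the single-end table the sum was 2125.5, 2168 and 2275 in d24 and 1297, 1779 and 526 in wt spleen, 674, 884 and 1696 in d24 and 588, 481 and 389 in wt thymus, and 2708, 4571 and 5539 in d24 and 3561, 2866 and 2209 in wt liver. Spleen and thymus sums of d24 lay above each wt sum, and liver sums overlapped.

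Ratios between chains of the same protein differed in how far they ranged. Per kb, Col4a1 was 1.63 to 1.95 times Col4a2 over the 18 paired-end libraries (median 1.71) and 1.49 to 2.82 times over the 18 single-end libraries (median 1.77). Col1a2 was 1.68 to 2.56 times Col1a1 per kb in paired-end libraries and 0.949 to 2.67 times in single-end libraries. Col6a2 was 0.501 to 0.966 times Col6a1 per kb in paired-end and 0.499 to 2.001 times in single-end libraries. The ratio per kb ranged over a wider fold for Col5a1 over Col5a2, 0.320 to 1.90 in paired-end libraries. The same held for Col6a3 over Col6a1, at 0.101 to 0.634. For the head-to-head pair Col4a3 over Col4a4 the ratio was 0.523 to 6.59, with mean signals under 1 in untreated spleen and thymus. Col3a1 over Col1a1, chains of different fibres, ranged from 3.21 to 19.6 per kb in paired-end libraries. These ratios are a description with no test.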

How the data were processed

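RNA of liver, spleen and thymus was extracted with RNeasy and made into stranded total RNA libraries, per the labels' protocols. The deposited tables hold a normalised signal per gene, for which mm10 is the build and edgeR a tool listed, per the submitters' processing notes. Aligner, counter and use of strand appear in no source used here. The signal is reads per 1000000 of an effective library size. Whole reads were recovered for 100% of values (within 0.01 of a step). Of the 36 paired-end columns, 18 belong to no sample here and were not used.

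Rows were matched by NCBI gene number to symbols, 96.7% in the paired-end and 97.1% in the single-end table. The members, gene lists and tests were chosen with earlier results of these data known. Levels between genes are per kb of exon union (GENCODE M21, GRCm38). limma 3.58.1 with trended variance (R 4.3.3) was fitted to log2(signal + 0.5) for genes with signal 1 or more in at least 3 libraries of the fit, with Benjamini-Hochberg adjustment over all genes and a threshold of 0.05. Differences are on that scale, which understates changes of low genes. X-ray and d24 comparisons used the 6 libraries of a tissue, tissue comparisons 9, and interactions 18. Alternatives were pseudocounts of 0.1 and 2, no filter, a mean signal of at least 5, median-ratio scaling, a replicate block, edgeR 4.0.16 and DESeq2 1.42.0 on recovered reads, each library left out, and a term for Xist (chosen after seeing the data). Named genes were Tnc, the 5 highest members per kb in each tissue, up to 12 called members of smallest p per X-ray, d24 or interaction comparison, the 5 highest and 5 lowest called tissue differences, and up to 4 called genes of each other list; members not called are also given for completeness. Same-numbered libraries deviated together in all 3 pairs for X-ray spleen (correlations 0.177 to 0.241), untreated spleen and thymus (0.154 to 0.326) and single-end wt spleen and liver (0.148 to 0.35), while each other comparison had at least 1 pair at or under 0.1 (X-ray thymus 0.0554 to 0.476). Promoter windows were read from RefSeq. The scripts were tested on simulated data. Values of some list genes are not reported here.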

Additional observations from a re-analysis of the deposited data

Results flagged for a closer look

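The difference after X-rays varied between tissues for 12 members by the limma F test over the 18 paired-end libraries, at a Benjamini-Hochberg adjusted p under 0.05 (33.3% of 36 members, against 30.5% of 15654 genes). F was 15.3 for Col11a2, 12.4 for Col27a1, 12.2 for Col7a1 and 9.89 for Col12a1, all with spleen highest, thymus next and liver near or under 0. F was 10.6 for Col13a1, which met the filter through liver alone, and 8.60 for Col15a1, and liver was lowest for both. F was 8.49 for Col5a3, which was lower after X-rays in spleen. F was 6.92 for Col18a1, highest in thymus, and 6.57 for Col6a3, 6.54 for Col4a2 and 6.18 for Col26a1, highest in spleen. F was 6.22 for Col28a1, which stood at -0.01 in spleen, -0.03 in thymus and -0.72 in liver. Col26a1 and Col28a1 met the filter in neither thymus nor liver. Of 18 fits that each left out 1 library, the call was kept in 14 for Col4a2, 13 for Col18a1 and 12 for Col6a3. It was kept in 8 each for Col26a1 and Col28a1.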

How the results depend on the processing

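No direction reversed under the alternatives run among the called members followed in X-ray and d24 comparisons and the tissue differences named. Requiring a mean signal of at least 5, which tests fewer genes, left 12 calls in X-ray spleen, 13, 16 and 15 in untreated spleen minus liver, thymus minus liver and spleen minus thymus, 6, 15 and 10 in the same single-end comparisons, and 7 in X-ray by tissue. With no filter there were 3 calls in X-ray thymus, 1 in d24 spleen and 0 in d24 thymus. The replicate block gave 10 calls in X-ray thymus, 8 in d24 spleen and 0 in d24 thymus, and elsewhere moved no count by over 1.5 times. EdgeR on recovered reads called 2 in d24 spleen, 8 in single-end spleen minus liver and 7 in X-ray by tissue. DESeq2 called 5 in d24 liver, 6 in d24 thymus and 2 in genotype by tissue, where a pseudocount of 2 also gave 2. The Xist term left 0 calls in d24 spleen and 0 in d24 thymus. The cause of these moves was not tested beyond the number of genes. Leaving out each library in turn gave 0 to 3 calls in X-ray liver, 12 to 24 in X-ray spleen, 2 to 5 in X-ray thymus, 0 to 1 in d24 liver, 1 to 6 in d24 spleen and 0 to 3 in d24 thymus. The same gave 20 to 26, 26 to 27 and 23 to 29 in the untreated tissue comparisons, 9 to 15, 18 to 26 and 11 to 21 in the single-end ones, 7 to 14 in X-ray by tissue (7 without untreated liver replicate 1) and 0 to 1 in genotype by tissue. Groups of 3 and genes with few reads limit the precision, and 1 read is worth up to 0.0828 of signal in the single-end table.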
